A study of Mus musculus and Homo sapiens with 11 samples.

Results

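The 47 genes described here encode the machinery of mitosis, from the cyclins and kinases that start it to the proteins that divide the cell. They were chosen by name, and all 47 were found among the 24062 genes of the deposited mouse table. The samples were cultured MMTV-ErbB2 cells, a mouse breast cancer line whose ErbB2 transgene is under the MMTV promoter, active in mammary epithelium. One group of 3 libraries came from the parental line and the other group of 3 from its brain metastatic derivative, called BrM 2a, and the derivative shares the transgene of its parent. The labels name 1 derivative, so the 3 BrM libraries stand for 1 line and not for 3 independent selections. Nothing in the labels says that libraries came from separate cultures, and p-values measure only the spread between these libraries. Another 5 libraries, of the human line HCC1954, are not used here.

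Cells enter mitosis when cyclin A2 and the B cyclins activate the kinase Cdk1. Kinetochores then attach chromosomes to spindle microtubules, a checkpoint holds the anaphase-promoting complex until attachment is complete, and the cell is cut apart by the midzone and contractile ring. Most of these genes are transcribed mainly in G2 and M phase. Fewer dividing cells and less RNA per dividing cell cannot be told apart in bulk RNA.

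Recovered reads assigned to genes numbered 29877087 in BrM replicate 1 and 38512988 to 46683735 in the other 5 libraries. Values are normalised read counts as deposited. Epithelial markers were abundant in every library. Of 8 listed genes 4 rose and 1 fell, against 12.2% of all genes tested called higher and 15.8% lower. They summed to between 108229 and 118099 in parental and between 171114 and 191835 in BrM libraries, with Krt8 and Krt18 making most of the BrM sums. Krt8 ran from 20801 to 35392 in parental and from 64388 to 76754 in BrM libraries. Cdh1 was lower, from 22772.5 to 26394 in parental and from 15273 to 16604 in BrM libraries. BrM replicate 1 stands apart from BrM replicates 2 and 3, so the group differences below are given with and without it where it decides them.

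No mitosis gene passed the test between the groups, and 1 library, BrM replicate 1, had low values of all of them. Of 47 members tested with limma, 0 passed at an adjusted p under 0.05, where 28.1% of all 13821 genes tested passed (15.8% lower and 12.2% higher in BrM). At an unadjusted p under 0.05 there were 2, Nusap1 and Ncaph. edgeR on recovered reads called 0 members (1 at an unadjusted p under 0.05) and 27.2% of all genes, and DESeq2 called 1 member, Nusap1, and 36.7% of all genes. Weighting each library in limma by how closely it followed its group (array weights) called 6 members, where 61.4% of all genes were called. It moved the members' median log2 difference to 0.10. These weights come from the same values and are no separate measure of library quality. Unweighted, the median log2 difference of the members, BrM minus parental, was -0.44, against -0.05 for all genes tested, and 46 of the 47 estimates were below 0. That median was 0.23 without BrM replicate 1, with 31 of 47 estimates above 0.

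In BrM replicate 1 every member had its lowest value of the 6 libraries, 47 of 47, against 28.6% of all genes tested. Relative to the parental mean the median member was 3.29-fold lower there, from 1.65-fold for Cdk1 to 6.61-fold for Ccna2. BrM replicates 2 and 3 had median log2 differences of 0.21 and 0.22 from the parental mean. The members' values summed to 0.18% of the library total in BrM replicate 1, to 0.667% and 0.678% in BrM replicates 2 and 3, and to 0.419%, 0.677% and 0.694% in parental replicates 1, 2 and 3. Parental replicate 1 was thus also low, by a median of 1.5-fold under parental replicates 2 and 3. It was the lowest parental library for 46 of 47 members, against 32.3% of all genes tested, the exception being Cdc25c. The smallest number of reads behind any member in any library was 320, so counting error is small beside these differences.

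**Figure D1:**
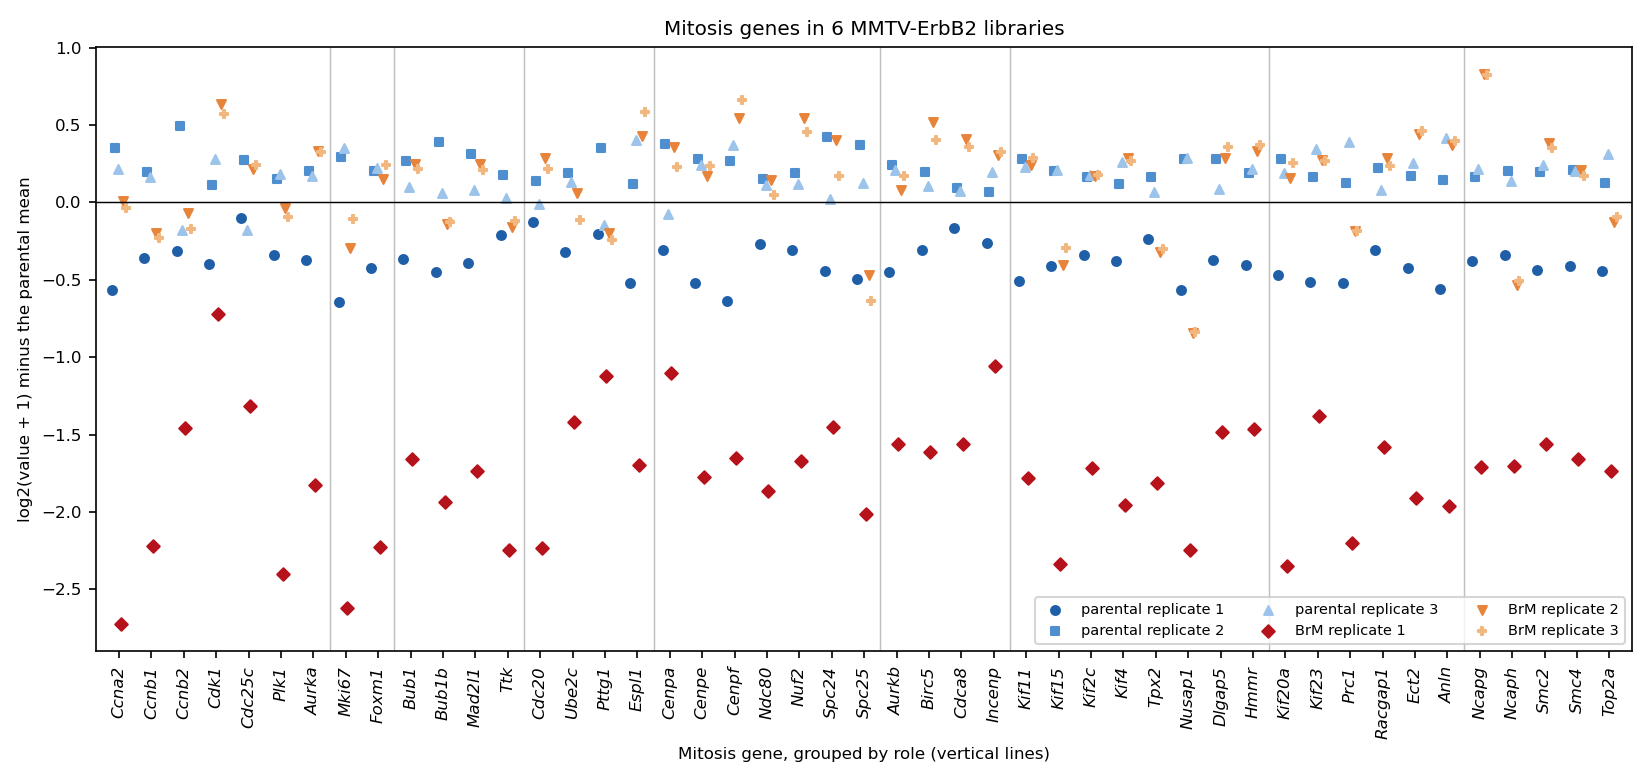
Each of the 47 mitosis genes is shown on the x axis, grouped by role, with 1 point per library giving log2(value + 1) minus the mean of the 3 parental libraries. The red diamonds of BrM replicate 1 lie below all other points for every gene, and parental replicate 1 lies below 0 throughout.

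The cyclins and entry kinases had both the deepest and one of the shallowest deficits. Ccna2, the cyclin of S phase and early mitosis, stood at 3999, 7572 and 6875 in parental replicates 1 to 3 and at 896, 5970 and 5783 in BrM replicates 1 to 3. Ccnb1, the cyclin that drives mitotic entry, stood at 5287, 7806 and 7604 in parental and at 1457, 5925 and 5806 in BrM libraries. For both cyclins BrM replicates 2 and 3 lay within the parental range and BrM replicate 1 lay far under it. Their log2 differences were -0.92 (SE 0.75, limma adjusted p = 0.404) and -0.88 (SE 0.55, adjusted p = 0.281). Without BrM replicate 1 they were -0.01 for Ccna2 (SE 0.27, limma adjusted p = 0.974) and -0.21 for Ccnb1 (SE 0.19, adjusted p = 0.382). Cdk1, the kinase that both cyclins activate, stood at 5166, 7361 and 8266 in parental and at 4120, 10586 and 10122 in BrM libraries. It was the member with the only positive log2 difference (0.16, SE 0.39, adjusted p = 0.79), with BrM replicates 2 and 3 above all parental libraries. Without BrM replicate 1 its log2 difference was 0.61 (SE 0.21, adjusted p = 0.0526). The other 4 genes of this group, Ccnb2, the phosphatase gene Cdc25c that activates Cdk1, and the kinase genes Plk1 and Aurka, had adjusted p between 0.352 and 0.659. Plk1 was 5.06-fold and Ccnb2 2.53-fold lower in BrM replicate 1 than in the mean of BrM replicates 2 and 3.

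The proliferation marker and the transcription factor of the set were among the most depleted in BrM replicate 1. Mki67, which encodes the Ki-67 protein that coats mitotic chromosomes, stood at 8846, 16960 and 17619 in parental and at 2248, 11272 and 12831 in BrM libraries. Foxm1, the forkhead factor that activates G2 and M genes, stood at 4271, 6598 and 6692 in parental and at 1227, 6380 and 6770 in BrM libraries. Both were 5.35-fold lower in BrM replicate 1 than in the other BrM libraries, and for both the groups overlapped. The log2 differences between groups were -1.01 for Mki67 (SE 0.69, limma adjusted p = 0.321) and -0.61 for Foxm1 (SE 0.66, adjusted p = 0.53). Without BrM replicate 1 they were -0.20 for Mki67 (SE 0.31, limma adjusted p = 0.621) and 0.20 for Foxm1 (SE 0.21, adjusted p = 0.477).

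Checkpoint genes and the genes of anaphase showed the same layout of libraries. Mad2l1, the checkpoint protein that inhibits Cdc20, stood at 3351, 5448 and 4639 in parental and at 1316, 5207 and 5068 in BrM libraries. Ttk, the kinase that starts checkpoint signalling at kinetochores, stood at 1796, 2352 and 2121 in parental and at 437, 1857 and 1913 in BrM libraries. With Bub1 and Bub1b, the 4 checkpoint genes were 3.49-fold to 4.31-fold lower in BrM replicate 1 than in the mean of BrM replicates 2 and 3. Cdc20, the activator of the anaphase-promoting complex, stood at 2477, 2969 and 2683 in parental and at 574, 3293 and 3145 in BrM libraries. Ube2c, the ubiquitin-conjugating enzyme of that complex, stood at 3471, 4940 and 4741 in parental and at 1621, 4528 and 4003 in BrM libraries. Cdc20 was thus 5.6-fold and Ube2c 2.62-fold lower in BrM replicate 1 than in the other BrM libraries. Pttg1, which encodes securin, the inhibitor of separase, had the smallest deficit of all 47 at 1.87-fold, and Espl1, which encodes separase, had 4.61-fold. The adjusted p of these 8 genes lay between 0.236 and 0.814.

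None of the 7 kinetochore genes passed, and Spc25 had the largest difference. Without BrM replicate 1, 6 of the 7 log2 differences were positive, that of Spc25 being the exception. Cenpf, a large protein of the outer kinetochore, stood at 3057, 5723 and 6152 in parental and at 1516, 6931 and 7537 in BrM libraries. Spc25, a subunit of the Ndc80 complex that binds microtubules, stood at 1121, 2046 and 1729 in parental and at 391, 1141 and 1020 in BrM libraries. For Spc25 BrM replicates 2 and 3 lay close to the lowest parental library, on either side of it. Its log2 difference was -1.04 (SE 0.45, limma adjusted p = 0.134), and without BrM replicate 1 it was -0.55 (SE 0.26, adjusted p = 0.125). Its partners in the same complex had estimates of the same sign with all 6 libraries, at -0.56 for Ndc80, -0.22 for Nuf2 and -0.29 for Spc24. Their estimates had the other sign when BrM replicate 1 was left out. Ndc80 had a log2 difference of 0.10, Nuf2 of 0.50 and Spc24 of 0.29 without BrM replicate 1 (adjusted p between 0.0509 and 0.629). The differences between these subunits were not tested.

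The chromosomal passenger complex had the same layout. Birc5, which encodes survivin, the subunit that docks the complex on centromeres, stood at 3276, 4642 and 4356 in parental and at 1324, 5791 and 5354 in BrM libraries. Aurkb, its kinase, stood at 2178, 3529 and 3447 in parental and at 1008, 3151 and 3353 in BrM libraries. All 4 subunits, with Cdca8 (borealin) and Incenp, had positive log2 differences without BrM replicate 1, from 0.12 to 0.46. Cdca8 passed in that comparison at 0.38 (SE 0.12, limma adjusted p = 0.042).

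The gene with the largest group difference was Nusap1, which encodes a microtubule-bundling protein of the spindle. It stood at 2369, 4256 and 4271 in parental and at 739, 1949 and 1958 in BrM libraries, and the groups did not overlap. Its mean was 1548 ± 701 in BrM and 3632 ± 1094 in parental libraries (SD, n = 3 each), and the log2 difference was -1.31 (SE 0.44, limma adjusted p = 0.0691). Without BrM replicate 1 the log2 difference was -0.84 (SE 0.27) and passed with an adjusted p of 0.0449. Nusap1 lies on chromosome 2 (GRCm38, 119618298 to 119651244, plus strand) and overlaps Oip5 on the opposite strand. The overlap was taken from gene bounds and not from exons, and whether the counting used strand is not given in the sources used here. The counts of the 2 genes may be affected by the overlap, which was not tested. Of the 47 members, 9 overlap another tested gene in this way.

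Other spindle genes followed the common layout, with Tpx2 the exception. Tpx2, which activates Aurora A on spindle microtubules, stood at 5855, 7712 and 7229 in parental and at 1962, 5504 and 5583 in BrM libraries. Its groups did not overlap either, at a log2 difference of -0.81 (SE 0.41, limma adjusted p = 0.193). The motors Kif11, Kif15, Kif2c and Kif4 were 3.71-fold to 4.71-fold lower in BrM replicate 1 than in the other BrM libraries, and the spindle proteins Dlgap5 and Hmmr 3.49-fold and 3.52-fold.

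Genes of cytokinesis stood between 3.15-fold (Kif23) and 5.89-fold (Kif20a) lower in BrM replicate 1 than in the other BrM libraries. Anln, the contractile ring scaffold anillin, stood at 9910, 16118 and 19457 in parental and at 3738, 18913 and 19248 in BrM libraries. Prc1, which bundles the midzone microtubules, stood at 5958, 9320 and 11214 in parental and at 1858, 7507 and 7499 in BrM libraries. The remaining midzone genes were the GTPase regulators Racgap1 and Ect2, at 3.58-fold and 5.14-fold. For all 6 the groups overlapped, and the adjusted p ran from 0.312 to 0.734.

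Condensin, the complex that compacts mitotic chromosomes, had no subunit among the 47 genes that passed with all 6 libraries, and 1 of its 4 subunits among them passed without BrM replicate 1. Ncaph stood at 2712, 3959 and 3786 in parental and at 1056, 2379 and 2419 in BrM libraries, without overlap (log2 difference -0.91, SE 0.35, limma adjusted p = 0.101). Ncapg stood at 1591, 2310 and 2393 in parental and at 629, 3662 and 3656 in BrM libraries. Without BrM replicate 1, Ncapg passed as higher at a log2 difference of 0.83 (SE 0.19, adjusted p = 0.0155), and Ncaph was at -0.52 (SE 0.18, adjusted p = 0.0553). Whether the 2 subunits differed from each other was not tested. The core subunits Smc2 and Smc4 had log2 differences of 0.37 and 0.19 in the same comparison (adjusted p 0.207 and 0.475). Top2a, the topoisomerase that untangles sister chromatids, had the highest value of the set and stood at 19953, 29665 and 33797 in parental and at 8159, 24823 and 25442 in BrM libraries.

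**Figure D2:**
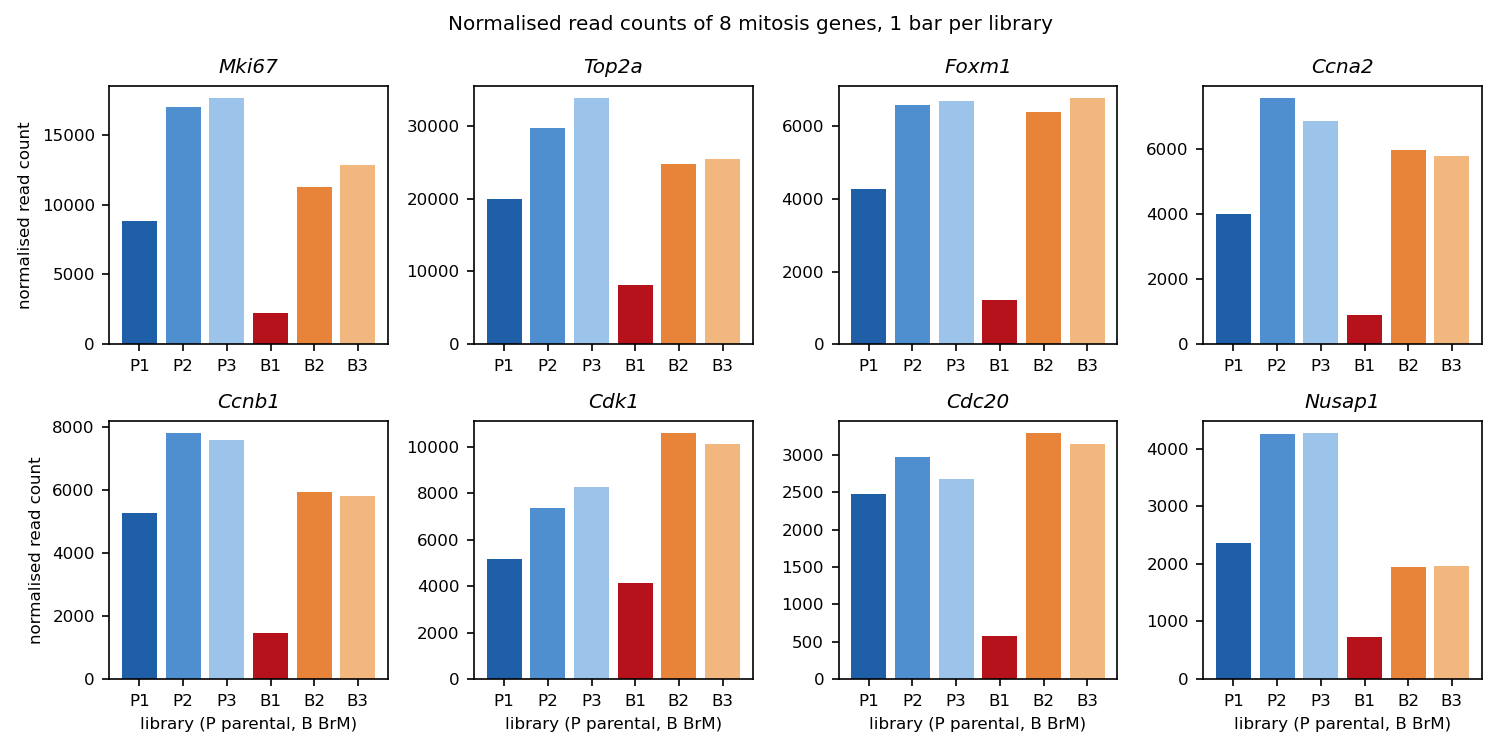
Bars give the normalised read count of 8 mitosis genes in each of the 6 libraries, P for parental and B for BrM, on axes that start at 0. In each panel BrM replicate 1 has the lowest bar, and Nusap1 is also low in BrM replicates 2 and 3, at 1949 and 1958.

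Without BrM replicate 1, limma called 3 of 47 members, Ncapg and Cdca8 as higher and Nusap1 as lower, where 47.2% of all genes tested were called (26.1% lower and 21.1% higher). Ncapg and Cdca8, like the other members outside the rule for named genes, were singled out after their values were seen. The 2 remaining BrM libraries differed from each other by a median of 1.03-fold over the members, with a largest ratio of 1.18-fold for Spc24, and by 1.07-fold over all genes tested. In 16 members both of these libraries lay above all 3 parental libraries, in 3 (Tpx2, Nusap1 and Ncaph) below all 3, and in 28 they met the parental range. The share of all genes tested was not computed for these counts, so they are not read as particular to the members. With all 3 BrM libraries, 3 of 47 members lay wholly below the parental values against 25.7% of all genes, and 0 lay wholly above against 22.3%. When parental replicate 1 was left out as well, 14 members were called, 5 higher and 9 lower, against 48.1% of all genes.

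**Figure D3:**
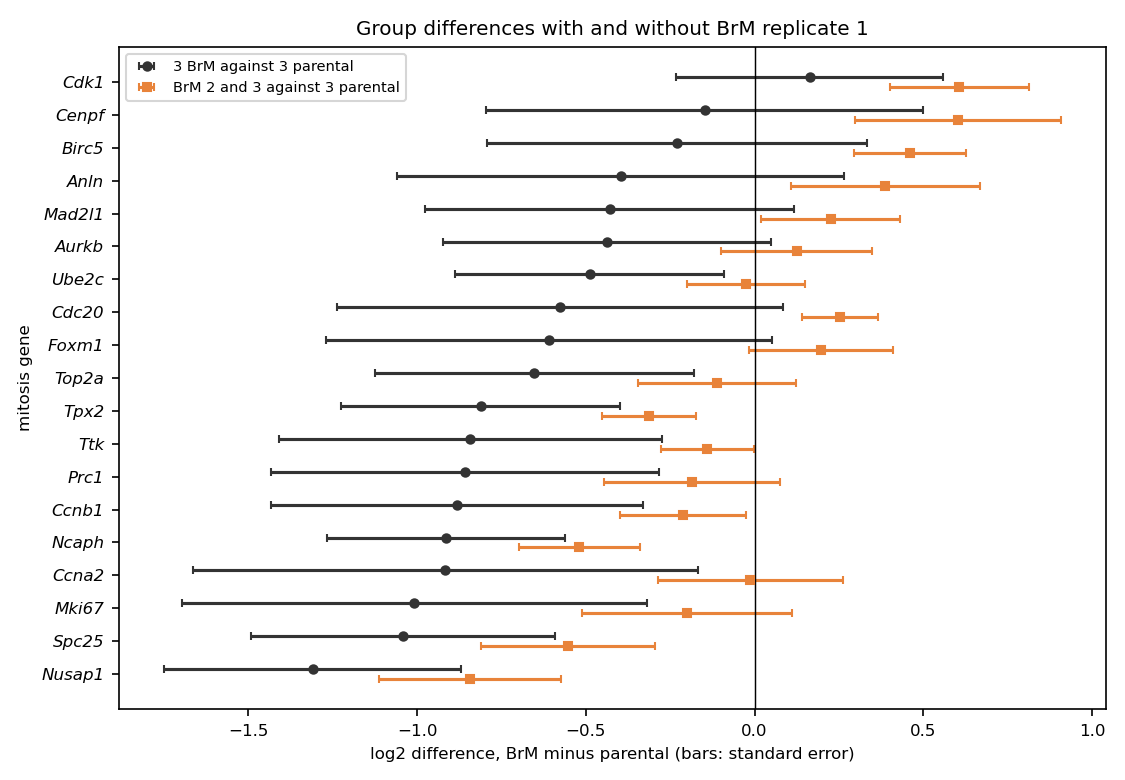
Points give the log2 difference BrM minus parental of 19 mitosis genes from limma, with standard errors as bars, for all 6 libraries (black) and without BrM replicate 1 (orange). The black estimates lie from -1.31 to 0.16 with wide bars, and the orange ones from -0.84 to 0.61.

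The depth of the deficit varied among members. BrM replicate 1 was at least 2-fold under the mean of BrM replicates 2 and 3 for 46 of 47 members, against 9.72% of all genes tested, and at least 4-fold under it for 19, against 1.87%. The median was 3.86-fold, where the median over all genes was 0.975-fold. The members over 5-fold were 9, namely Ccna2, Kif20a, Ncapg, Cdc20, Foxm1, Mki67, Ect2, Anln and Plk1. A further 11 were under 3-fold, among them Pttg1, Ncaph, Cdk1 and Ccnb2. Across the 47 genes, the log2 deficit of parental replicate 1 against the other parental libraries and that of BrM replicate 1 against the other BrM libraries had a Pearson r of 0.299 and a Spearman rho of 0.282. The same r over all genes tested was 0.304. Genes are not independent replicates, and each axis rests on 1 library against 2.

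**Figure D4:**
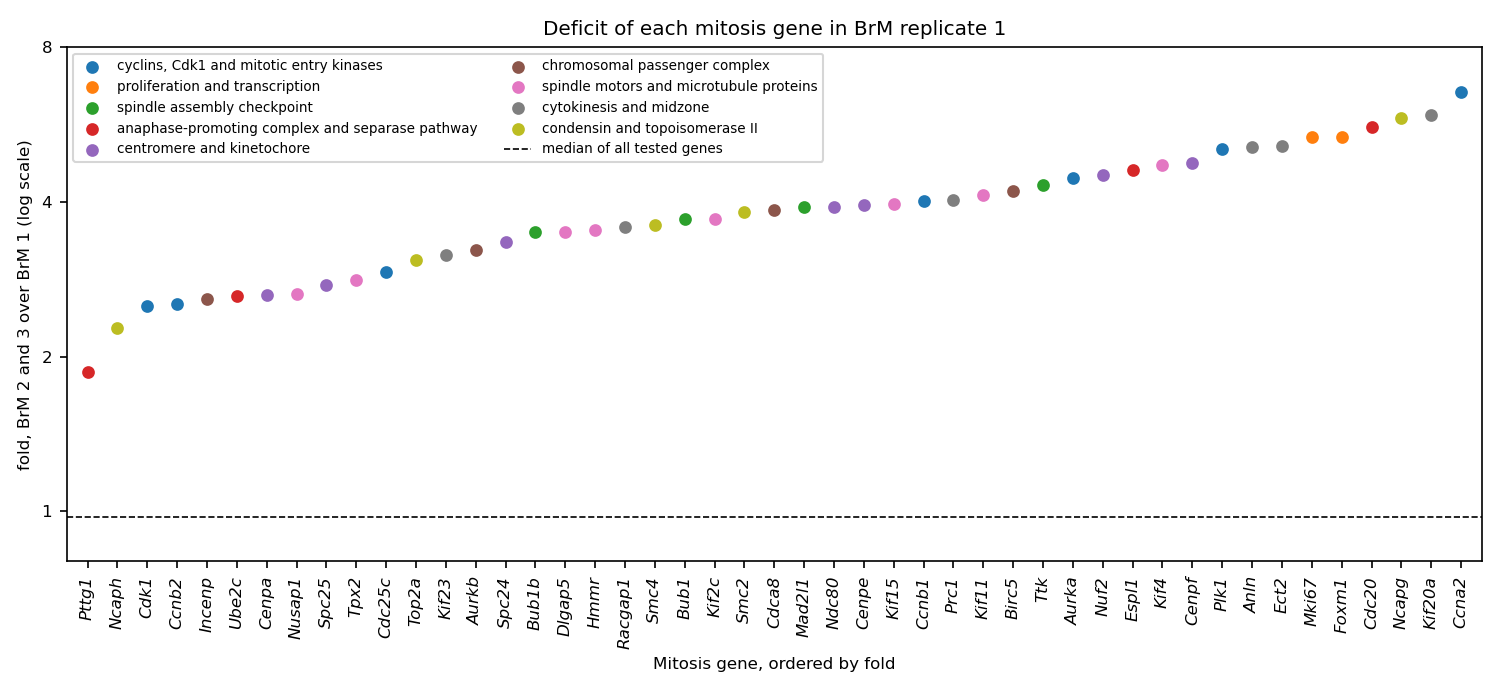
The 47 mitosis genes are ordered by the fold of the mean of BrM replicates 2 and 3 over BrM replicate 1, on a log axis and the log2(value + 1) scale, with colours for roles. Folds run from 1.87 for Pttg1 to 6.55 for Ccna2, and the dashed line marks the median of all tested genes at 0.975.

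Levels between genes were compared per kilobase of exon, from the union of GENCODE M21 exons on GRCm38, which counts exons of all transcripts and so understates genes with long rare exons. In the parental mean, Top2a led with 3085 normalised reads per kb, followed by Ccnb2 with 2665 and Plk1 with 2070. The lowest were Kif15 with 209, Cdc25c with 220.5 and Ndc80 with 252. In BrM replicate 1 the range ran from 40.65 for Kif15 to 938 for Ccnb2, with Top2a at 905.

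Markers of other cells and depth also set BrM replicate 1 apart. Of 7 leukocyte markers, 2 passed the filter on low values and 1, Csf1r, passed the test as higher in BrM, against 12.2% of all genes tested. The list summed to 220.002 to 598 in parental libraries, to 3000.4 in BrM replicate 1, and to 471 and 449.8 in BrM replicates 2 and 3. Cd68 made most of that sum, at 2670 in BrM replicate 1, while the defining markers Ptprc (4.88), Emr1 (0) and Cd3e (1.22) were at or near 0 there. Of 8 fibroblast and pericyte markers, 6 passed the filter and 4 fell, against 15.8% of all genes tested called lower. Their sum was 4644 to 16102 in parental libraries, 1109.6 in BrM replicate 1 and 219.99 and 226 in BrM replicates 2 and 3. Postn (3079 to 11713) and Pdgfrb (1002 to 3683) made most of the sum in each parental library. In BrM replicate 1, Pdgfra (555) and Col1a1 (437) made most of the sum, while Pdgfrb was at 0 and Col1a2 and Col3a1 were at 1.22. Lum was at 0 in all libraries and Dcn at 0 in BrM. The 5 endothelial markers summed to at most 25.6 and the 8 brain cell markers, of which 1 was tested and rose (Gfap), to at most 144 in any library, with Olig1 and Olig2 at 0 throughout. Whether other cells were present was not tested, nor was the part of any such cells or of the lower read total in the deficit.

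Further lists of mitotic and replication genes were read beside the 28.1% of all genes tested that were called and the 28.6% that were lowest in BrM replicate 1. Of 52 further spindle and kinetochore genes, 0 rose and 2 fell, and 49 had their lowest value in that library. Of the 52, 8 were called higher and 3 lower without BrM replicate 1, against 21.1% and 26.1% of all genes. Oip5, which takes part in the loading of the centromeric histone, fell 2.9-fold (limma log2 difference -1.54, SE 0.44, adjusted p = 0.0428). Ckap5, a microtubule polymerase, fell 1.49-fold (limma log2 difference -0.58, SE 0.17, adjusted p = 0.0458). With edgeR neither passed, at adjusted p of 0.0557 and 0.0583. Both passed in limma without BrM replicate 1, Oip5 at -1.04 (SE 0.20, limma adjusted p = 0.00828) and Ckap5 at -0.46 (SE 0.14, adjusted p = 0.04125). Oip5 overlaps Nusap1, as stated above. Of 35 DNA replication genes, 0 passed, and 34 were lowest in BrM replicate 1, with a median 3.07-fold under the other BrM libraries. Of the 35, 7 were called higher and 0 lower without BrM replicate 1, against the same 21.1% and 26.1% of all genes. Pcna, the sliding clamp, stood at 10312, 11882 and 12769 in parental and at 3956, 10120 and 9507 in BrM libraries. Rrm1, a subunit of ribonucleotide reductase, had an adjusted p of 0.278.

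The remaining lists had shallower median deficits than the 3.86-fold of the 47 mitosis genes. The median of 17 anaphase-promoting complex subunits and inhibitors was 1.2-fold lower in BrM replicate 1 than in the other BrM libraries, against 2.99-fold for the 52 spindle and kinetochore genes. It was 1.61-fold for 11 cohesin genes, 1.64-fold for 9 other checkpoint components, 1.65-fold for 14 entry phosphatases, brakes and Cdk partners, and 2.36-fold for 5 other condensin genes. Of the 17, 1 rose and 0 fell, the riser being the subunit Cdc16 (1.34-fold, limma adjusted p = 0.0368). Of the 9 checkpoint components, 1 rose, Mad1l1, the partner of Mad2 (1.48-fold, adjusted p = 0.0175), and 0 fell. Of the 11 cohesin and 5 other condensin genes, 0 passed, with Rad21 at an adjusted p of 0.832 and Smc1a at 0.966, and Ncaph2 at 0.429 and Top2b at 0.101. Of the 14 entry genes, 0 rose and 1 fell, Ensa, which inhibits the phosphatase PP2A-B55 once phosphorylated (1.67-fold, adjusted p = 0.00492). Without BrM replicate 1, 21.1% of all genes tested were called higher and 26.1% lower. In that comparison 3 cohesin genes were called higher and 2 lower, 1 other condensin gene higher and 0 lower, and 2 checkpoint components higher and 1 lower. Of the anaphase-promoting complex genes 1 was called higher and 1 lower, and of the entry genes 0 higher and 3 lower. The differences between lists were not tested.

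Among 20 regulators of the cell cycle promoters, 0 rose and 3 fell, a share near the 15.8% of all genes called lower. Of the 20, 4 were called higher and 4 lower without BrM replicate 1, against 21.1% and 26.1% of all genes. In BrM replicate 1, 11 of the 20 had their lowest value, against 28.6% of all genes tested. There 8 were at least 2-fold under the mean of BrM replicates 2 and 3, against 9.72% of all genes, with a list median of 1.45-fold. E2f1, which activates genes of the G1 to S transition, fell 1.9-fold (limma log2 difference -0.93, SE 0.14, adjusted p = 0.00434), and stood at 2292, 2639 and 2906 in parental and at 1421, 1324 and 1359 in BrM libraries. BrM replicate 1 was therefore the highest BrM library for E2f1. Tfdp2, a dimerisation partner of E2F factors, fell 2.45-fold (-1.30, SE 0.14, adjusted p = 0.00152) and stood at 734, 680.05 and 715 in BrM libraries. Rbl2, the pocket protein p130 of the repressive DREAM complex, fell 1.65-fold (-0.72, SE 0.19, adjusted p = 0.0332).

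**Figure D5:**
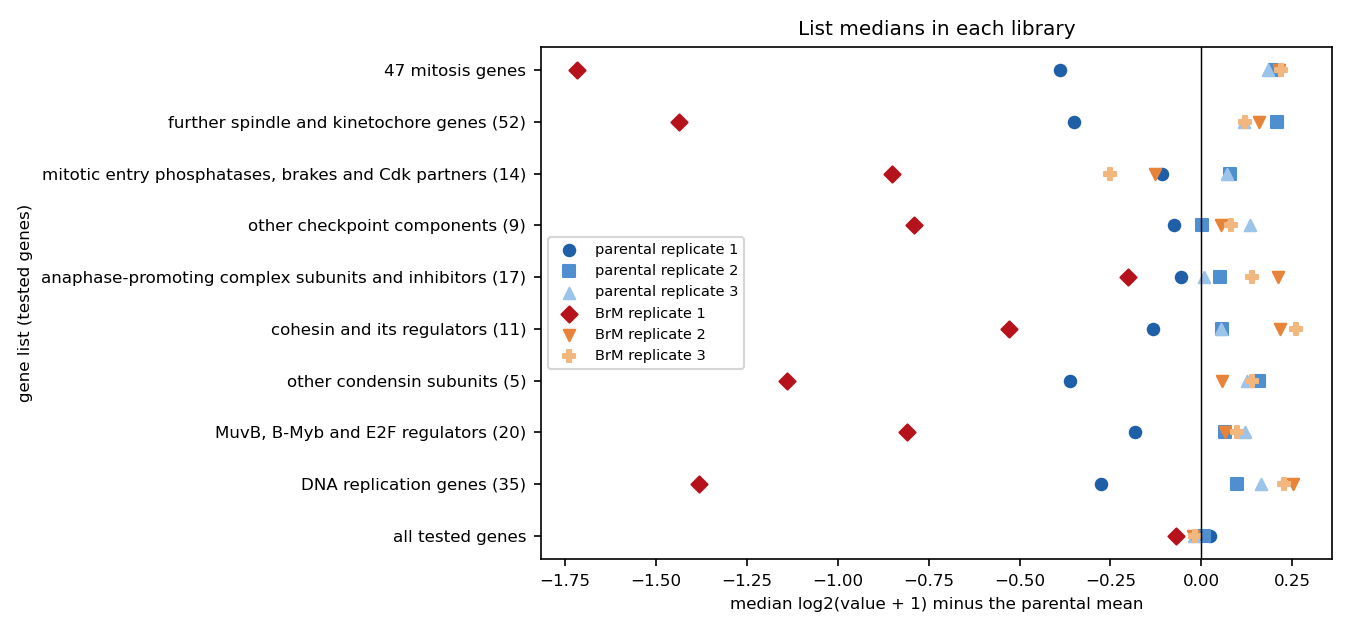
Points give the median log2(value + 1) minus the parental mean for each gene list in each of the 6 libraries. BrM replicate 1 lies at -1.72 for the 47 mitosis genes, -1.44 for further spindle and kinetochore genes, -1.38 for DNA replication genes and -0.20 for subunits and inhibitors of the anaphase-promoting complex, and all tested genes lie near 0.

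Because the members moved together across libraries, their promoters were read for the 2 elements best known from G2 and M genes. The cell cycle genes homology region (CHR) is bound by MuvB complexes, and CCAAT boxes are bound by NF-Y. RefSeq promoter windows on GRCm38.p6, 250 bases before to 50 after the start, were matched by symbol for 37 of 47 members in 39 windows. CHR was searched as TTTGAA and its reverse complement TTCAAA, and the CCAAT box as CCAAT and ATTGG, so both strands were read, and matches of the 2 elements may share bases. CHR letters were in 30 of the 39 windows, or 76.9%, against 17.9% of all 32851 windows of the same length. CCAAT letters were in 29, or 74.4%, against 37.4% of all windows, and both were in 66.7% against 6.95%. By gene, 28 of 37 members held CHR letters in a window and 6 held neither element there. Members with CHR letters were a median 3.93-fold lower in BrM replicate 1 than in the other BrM libraries (28 genes), and those without 3.90-fold (9 genes). A match is a description of letters and not a site.

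The 5 windows printed run 5′ to 3′ on the gene's strand, with the CHR and CCAAT letters in capitals. They were taken for Ccnb2, Cdc20 and Cdk1, which hold both elements and span shallow and deep deficits, and for Nusap1 and Pttg1, whose windows hold neither. Ccnb2 is at chr9:70421505-70421804 and Cdc20 at chr4:118437294-118437593, both on the minus strand. Cdk1 is at chr10:69352863-69353162 on the minus strand, Nusap1 at chr2:119618048-119618347 on the plus strand and Pttg1 at chr11:43425932-43426231 on the minus strand. The Pttg1 window lies wholly inside the gene as annotated in GENCODE M21 (43420250 to 43426251). Bases before that annotated gene start were therefore not read for Pttg1. The windows of Cdca8, Kif2c and Kif4 also lie inside their annotated genes.
Ccnb2: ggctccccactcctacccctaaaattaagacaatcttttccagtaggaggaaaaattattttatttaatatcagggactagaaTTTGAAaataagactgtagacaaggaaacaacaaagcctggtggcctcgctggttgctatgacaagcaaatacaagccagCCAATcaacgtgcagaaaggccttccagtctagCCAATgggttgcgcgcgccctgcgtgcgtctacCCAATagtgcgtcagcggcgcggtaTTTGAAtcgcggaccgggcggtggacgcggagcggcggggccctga
Cdc20: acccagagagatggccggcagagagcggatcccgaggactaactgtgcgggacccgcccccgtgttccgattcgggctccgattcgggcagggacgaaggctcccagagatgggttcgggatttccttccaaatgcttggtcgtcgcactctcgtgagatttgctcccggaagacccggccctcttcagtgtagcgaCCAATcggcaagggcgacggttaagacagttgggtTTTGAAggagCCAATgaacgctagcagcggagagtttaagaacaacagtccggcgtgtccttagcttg
Cdk1: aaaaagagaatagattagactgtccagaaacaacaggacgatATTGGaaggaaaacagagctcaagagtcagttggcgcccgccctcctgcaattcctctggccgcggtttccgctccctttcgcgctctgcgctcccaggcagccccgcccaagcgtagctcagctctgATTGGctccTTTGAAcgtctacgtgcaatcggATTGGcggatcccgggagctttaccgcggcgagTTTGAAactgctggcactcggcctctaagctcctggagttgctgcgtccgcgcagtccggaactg
Nusap1: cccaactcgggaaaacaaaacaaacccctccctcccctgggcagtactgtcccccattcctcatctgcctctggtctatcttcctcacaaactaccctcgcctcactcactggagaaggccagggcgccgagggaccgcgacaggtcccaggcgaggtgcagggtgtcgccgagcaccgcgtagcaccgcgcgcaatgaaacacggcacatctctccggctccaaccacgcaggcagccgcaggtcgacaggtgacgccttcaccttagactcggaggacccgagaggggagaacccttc
Pttg1: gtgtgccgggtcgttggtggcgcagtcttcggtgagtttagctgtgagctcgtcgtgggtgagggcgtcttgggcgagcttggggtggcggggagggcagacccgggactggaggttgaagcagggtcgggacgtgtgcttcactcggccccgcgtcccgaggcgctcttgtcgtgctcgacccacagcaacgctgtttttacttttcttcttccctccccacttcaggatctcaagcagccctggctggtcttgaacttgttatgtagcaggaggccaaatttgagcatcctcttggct
Cdc20 has 1 CHR and 2 CCAAT matches and Cdk1 has 2 and 3, and these genes were 5.6-fold and 2.51-fold lower in BrM replicate 1 than in the other BrM libraries. Ccnb2, with 2 and 3 matches, was 2.53-fold lower. Nusap1 and Pttg1, with no match in the window, were 2.64-fold and 1.87-fold lower. The other members with neither element in the window ran from 2.27-fold lower for Ncaph to 4.52-fold lower for Nuf2, with Mad2l1 and Birc5 between them. The windows of Nusap1 and Pttg1 therefore do not show that members without the elements in their windows had shallow deficits.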

How the data were processed

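Polyadenylated RNA was sequenced on an Illumina instrument. Per the labels, libraries were made with TruSeq or NEBNext kits and cells grown in DMEM or RPMI media, without saying which library had which. A kit or medium that differs between libraries thus cannot be told apart from the line, or from what sets BrM replicate 1 apart. Reads were processed with STAR and HTSeq and the builds GRCh38 and GRCm38, per the submitters' processing notes, which give no versions. The deposited signal values are gene read counts scaled per library by the authors, with the scaling tool not given in the sources used here. In each library 100% of values above 0 were whole multiples of 1 read within 0.01 read, so reads were recovered by division.

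The test was limma 3.58.1 (R 4.3.3), for the 13821 genes averaging 10 or more across libraries, with log2(value + 1) as the response, group alone, intensity trend, two-sided, Benjamini-Hochberg adjusted, threshold 0.05. Fold changes are on that scale. Alternatives were other pseudocounts, filters, scalings and moderation, array weights, edgeR 4.0.16, DESeq2 1.42.0, a replicate block and leaving out libraries. The methods were tested on simulated data. Values in all libraries are given for called members, for the member of highest mean and of largest difference in each role, and for Mki67, Cdk1, Ccnb1 and Foxm1. Of each further list up to 4 called genes are named, or the 2 of highest mean. The members, lists and rules were chosen with earlier results of these data known. Column 3 of each group carries a number that no title has and was assigned to its group only. Positions came from GENCODE M21 (GRCm38). Not every gene of the marker lists is reported by name. Figures used matplotlib 3.10.9.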

Additional observations from a re-analysis of the deposited data

How the results depend on the processing

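The count of 0 called members held with other pseudocounts, filters, scalings and moderation and with edgeR. It was 6 with array weights, 1 with DESeq2, and 0 to 3 when 1 library was left out, the 3 being without BrM replicate 1. The members' median log2 difference was 0.10 with array weights, -0.20 with edgeR and with DESeq2, and -0.77 to 0.23 with 1 library left out. Genes called numbered 8485 with array weights and 2191 to 6519 with 1 library left out. Chosen after seeing the data, leaving out BrM replicate 1 and parental replicate 1 gave 6653 genes, 14 members, a median of 0.01 and Birc5 at 0.31, against -0.23 with all libraries and -0.60 (without BrM replicate 2) to 0.46 (without BrM replicate 1) with 1 left out. Quantile normalisation moved the median of all genes from -0.05 to 0.09 and the calls from 1691 higher and 2190 lower to 2339 and 1835, with the members' median at -0.34. The cause was not tested. With BrM replicate 1 left out, BrM rests on 2 libraries.

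Same-numbered libraries correlated in their deviations from the group means at 0.304, -0.088 and 0.326 for numbers 1, 2 and 3. Deviations within a group constrain each other, so these values cannot decide whether same-numbered libraries share a culture or batch. A replicate block over the 4 libraries with numbered titles called 2029 genes and 1 member, Nusap1, and a replicate block over the 3 column numbers, added after seeing the data, called 4040 genes and 3 members, Nusap1, Spc25 and Ncaph. BrM replicates 1 and 3 correlated best with the parental library of their own number, and BrM replicate 2 with parental replicate 3 (0.311).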
